A study of Mus musculus with 18 samples.

Results

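Chemokine receptors that guide lymphocytes into tissues were followed across 6 groups of regulatory T cells (Tregs), CD4+ lymphocytes defined by the factor Foxp3 that hold immune responses in check. The set holds 8 genes, Ccr2, Ccr3, Ccr4, Ccr6, Ccr8, Cxcr3, Cxcr6 and Gpr15, of the 19752 genes with a single-symbol probe set on the array. They were chosen by name, as receptors that bring cells to inflamed skin, lung, liver, gut or other tissue, and each has 1 probe set with that symbol alone. All 8 passed the filter on low values (a group mean of at least 7.05 on the log2 scale) in each fit. In spleen Ccr3 and Gpr15 passed it through the perinate-tagged group alone, and in thymus Ccr2, Ccr3, Cxcr3, Cxcr6 and Gpr15 through the adult group alone, so a difference was built into their passing. With no filter their calls between the tagged groups and in the thymus held.

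Chemokine receptors are seven-pass membrane proteins that couple to inhibitory G proteins. A cell follows the gradient of the chemokine its receptor binds, so the receptors a Treg carries help to decide which tissue it can enter. Resting Tregs recirculate through lymph nodes by Ccr7, while activated Tregs gain receptors for chemokines made in inflamed or barrier tissue.

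The mice were of the NOD strain, which becomes diabetic by autoimmunity, and RNA of the sorted cells was hybridised to 18 Affymetrix Mouse Gene 1.0 ST arrays, 3 in each group. The 4 spleen groups came from female mice at 60 days of age that carried Foxp3-eGFP-Cre-ERT2 and Rosa26-YFP. The Foxp3 locus there drives a GFP-tagged Cre that acts only in the presence of tamoxifen, and Cre switches on YFP for good in that cell and its descendants. Mice received 4 intraperitoneal doses of tamoxifen, given from day 0 to day 10 in the perinate groups and from day 35 to day 45 in the adult groups, so treated mice are the controls too and no untreated group was analysed. GFP+YFP+ cells are called perinate-tagged or adult-tagged. GFP+YFP- cells of the same treatments are the untagged perinate-treated and untagged adult-treated groups, which hold every Foxp3+ cell that was not marked, whatever its age. The thymus groups are CD4+ GFP+ cells of male Foxp3-GFP mice, taken at 4 days for the perinate thymus and at 5 weeks for the adult thymus. Tissue, sex, sorter and reporter strain all differ between spleen and thymus and cannot be told apart. Nothing in the labels tells if a replicate was 1 mouse or a pool, and p-values therefore measure only the spread between these arrays, which may be technical.

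A single array, perinate-tagged replicate 2, went against its label as a female sample, with the Y-linked genes Eif2s3y, Kdm5d and Uty at 9.79, 8.87 and 9.05 on the log2 scale, and Xist at 8.38. Results that use it are given with and without it where that changes a call. The T cell and Treg markers Cd3e, Cd4, Il2ra, Ctla4 and Foxp3 were high in each group (9 of 9 listed markers above the filter). Transcripts absent by sex, Y-linked genes on the 11 other spleen arrays and Xist on the 6 thymus arrays, read 3.95 to 6.30, which serves here as a rough range of background. Where the lower of 2 group means lies in that range, the estimated difference may understate the change. The spread of values on an array, its interquartile range, was 2.94 to 3.12 on perinate-tagged and 2.49 to 2.88 on adult-tagged arrays, and a fit with it as a covariate is given with the first comparison.

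The promoters of the receptors that moved together are shown first, 250 bases before the start site in RefSeq's annotation of GRCm38.p6, 5' to 3' on the gene's own strand. Capitals mark matches, on either strand, to 1 of 5 short motifs. The first 4 belong to receptors whose transcript stood high in perinate-tagged cells and at a similar level in the other 3 spleen groups.

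Ccr2 (chr9:124101933-124102182, strand +): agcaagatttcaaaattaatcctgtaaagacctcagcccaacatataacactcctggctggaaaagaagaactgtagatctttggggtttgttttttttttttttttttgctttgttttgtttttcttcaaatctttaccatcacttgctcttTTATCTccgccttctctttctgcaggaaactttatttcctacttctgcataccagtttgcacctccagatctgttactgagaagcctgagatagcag
Ccr3 (chr9:124021721-124021970, strand +): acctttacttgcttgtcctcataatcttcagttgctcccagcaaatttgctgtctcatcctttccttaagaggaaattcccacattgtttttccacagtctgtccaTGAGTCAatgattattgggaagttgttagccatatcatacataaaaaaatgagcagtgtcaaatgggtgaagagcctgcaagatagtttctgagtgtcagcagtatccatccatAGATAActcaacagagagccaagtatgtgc
Ccr4 (chr9:114496545-114496794, strand -): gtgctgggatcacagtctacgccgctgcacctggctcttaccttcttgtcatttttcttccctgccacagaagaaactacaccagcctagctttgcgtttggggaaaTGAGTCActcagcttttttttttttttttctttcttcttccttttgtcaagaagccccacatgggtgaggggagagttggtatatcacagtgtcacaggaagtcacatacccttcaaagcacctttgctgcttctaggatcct
Gpr15 (chr16:58718873-58719122, strand -): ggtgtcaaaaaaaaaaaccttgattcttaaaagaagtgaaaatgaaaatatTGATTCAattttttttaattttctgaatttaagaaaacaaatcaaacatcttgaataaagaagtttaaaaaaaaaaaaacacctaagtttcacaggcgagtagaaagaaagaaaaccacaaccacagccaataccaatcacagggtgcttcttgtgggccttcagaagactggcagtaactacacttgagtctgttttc

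The AP-1 letters TGANTCA stood in 3 of these 4 windows, TGAGTCA in Ccr3 and Ccr4, 144 and 143 bases before the start, and TGATTCA in Gpr15, 199 bases before it. They occur in 6.75% of the 32851 promoters of the same length. The GATA letters AGATAA, found in 9.99% of promoters, were in the windows of Ccr2 and Ccr3, and also in those of Ccr6 and Ccr8. Each match is a description of the letters and not evidence of binding.

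The next pair of promoters belongs to Ccr8 and Cxcr3, which followed each other from array to array in the untagged groups, though not across all 18 arrays (r = -0.15).

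Ccr8 (chr9:120091883-120092132, strand +): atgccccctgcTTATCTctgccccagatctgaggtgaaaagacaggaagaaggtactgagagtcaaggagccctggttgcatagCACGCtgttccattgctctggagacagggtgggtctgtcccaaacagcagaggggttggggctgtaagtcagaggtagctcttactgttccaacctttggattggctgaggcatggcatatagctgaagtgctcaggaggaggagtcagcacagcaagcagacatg
Cxcr3 (chrX:101734148-101734397, strand -): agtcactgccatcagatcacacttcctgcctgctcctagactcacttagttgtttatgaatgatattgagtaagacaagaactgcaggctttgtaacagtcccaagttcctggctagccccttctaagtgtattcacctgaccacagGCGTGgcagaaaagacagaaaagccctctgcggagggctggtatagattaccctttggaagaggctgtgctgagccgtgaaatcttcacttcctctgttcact

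Both hold the AHR core GCGTG, which 28.2% of promoters hold, 166 bases before the start in Ccr8 and 103 in Cxcr3. Ccr8 also holds the GATA letters, 239 bases before it. The T-box letters AGGTGTGA, present in 1.12% of promoters, were in 0 of the members' windows, and the ROR letters AGGTCA (14.0% of promoters) were in that of Ccr6 alone. Matches to different motifs did not overlap in any of the members' windows.

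The first question was whether spleen Tregs tagged around birth differ, at the same later age of the mouse, from those tagged in the adult. Time since tagging differs too, with doses from day 0 to day 10 or from day 35 to day 45. Adult tagging also marks Foxp3+ cells present at that time whatever their age. Origin of the cells and time since tagging cannot be told apart here. In perinate-tagged cells 7 receptors were higher, by 1.94-fold (Ccr4) to 6.0-fold (Cxcr6), and Ccr6 was 1.49-fold lower. Across the 10350 genes tested, 16% were called higher and 3.5% lower (limma, adjusted p under 0.05). The groups did not overlap for any of the 8 receptors, 7 higher and 1 lower, where 33.2% of all genes were higher without overlap and 12.7% lower. For Ccr3 and Gpr15, which passed the filter through the perinate-tagged group alone, a higher value there was built into their passing. The members' median difference was 1.70 on the log2 scale, beside 0.12 for all genes.

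Scaling moved the background more than the receptors. The split of all called genes was 1658 higher and 362 lower as deposited, 1117 and 720 with quantile normalization, 2003 and 171 with arrays centred on the median of all probe sets, and 899 and 1488 with arrays centred on the median of the tested genes. The median of all genes was -0.01, 0.21 and -0.11 under these 3 scalings, and under each of them 7 receptors were called higher and Ccr6 lower.

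**Figure D1:**
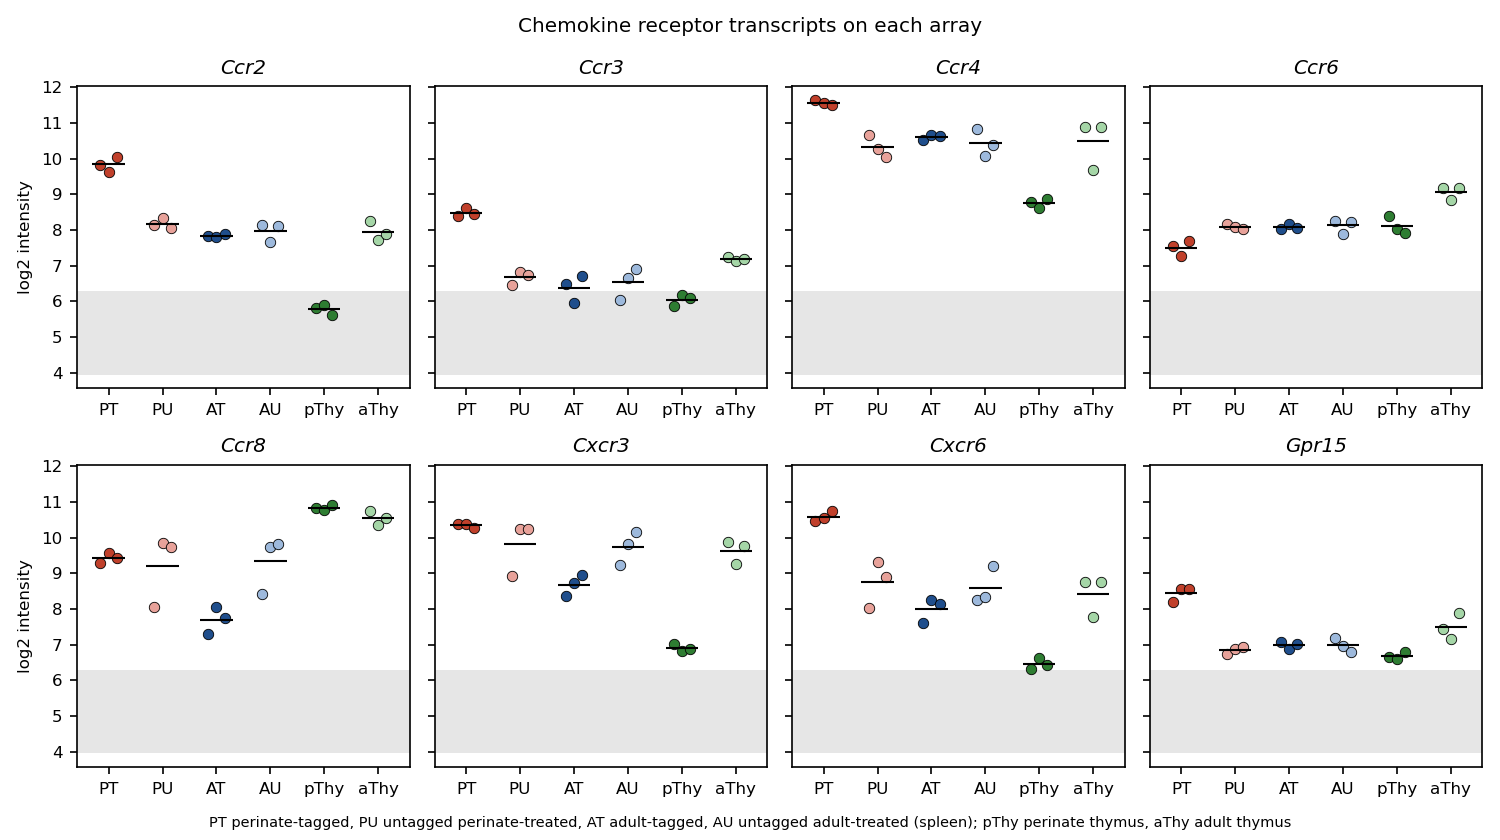
Log2 intensity of the 8 receptors on each of the 18 arrays (points), with the mean of each group of 3 (line) and the background range of 3.95 to 6.30 in grey. Perinate-tagged points stand above the other spleen groups for Ccr2, Ccr3, Ccr4, Cxcr6 and Gpr15, adult-tagged points stand below them for Ccr8, and Ccr6 is lowest in perinate-tagged cells.

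Ccr2 binds the monocyte chemoattractant Ccl2 and takes monocytes and activated T cells to inflamed tissue. Its log2 intensity was 9.83, 9.64 and 10.06 on perinate-tagged replicates 2, 4 and 5, and 7.82, 7.81 and 7.90 on adult-tagged replicates 1 to 3. The untagged arrays read 8.15, 8.33 and 8.06 after perinate treatment and 8.15, 7.67 and 8.11 after adult treatment. Perinate-tagged cells thus stood clear of the other 3 spleen groups, which lay close together. Against adult-tagged cells the difference was 2.00 ± 0.15 (log2, SE), 4.00-fold, with an adjusted p of 2.01e-06. Ccr2 is also a monocyte gene. Of 10 measured monocyte and macrophage markers, 2 passed the filter, and both were higher in perinate-tagged cells, the oxidase subunit Cybb (1.62 ± 0.44) and the lysosomal Cd68 (0.54 ± 0.16). The list summed to linear intensities of 974 to 1540 on perinate-tagged and 775 to 814 on adult-tagged arrays. Its median log2 level was higher too, at 6.23 to 6.24 against 5.98 to 6.17. Lyz2, the abundant lysozyme of myeloid cells, read in the background range in both tagged groups (6.10 ± 0.10 and 6.28 ± 0.08, SD). Mean Cybb was 8.77 in perinate-tagged cells, 8.77 in untagged cells after perinate treatment and 8.86 after adult treatment, while Ccr2 stood high in the first of these 3 groups only. Among other lists, the epithelial adhesion gene Epcam (1.07 ± 0.23, 1 of 5 tested in its list), the B cell gene Cd79b (0.66 ± 0.14) and Gata3, listed with innate lymphocytes but also a T cell gene (0.74 ± 0.17), were higher in perinate-tagged cells, the latter pair 1 of 1 and 1 of 3 tested. Of the 9 T cell and Treg markers 1 was lower, Il2ra, the IL-2 receptor alpha chain (-0.39 ± 0.12). The B cell list summed to 1054 to 1263 on perinate-tagged and 876 to 919 on adult-tagged arrays, and the innate list to 2920 to 3047 and 1800 to 2009. The median log2 level of the B cell and innate lists did not rise, at 6.25 to 6.40 against 6.33 to 6.46 for B cells. For the innate list it was 5.85 to 6.01 against 5.85 to 6.09. Over the 5 tested genes of the list with Epcam the median difference was -0.35. That list summed to 899 to 973 on perinate-tagged and 890 to 1079 on adult-tagged arrays. The part of such cells in the receptor differences was not tested.

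Ccr3, the eotaxin receptor best known from eosinophils, had the same pattern at a lower intensity. Perinate-tagged arrays read 8.39, 8.63 and 8.46, and adult-tagged arrays 6.49, 5.97 and 6.71. After perinate treatment the untagged arrays read 6.47, 6.83 and 6.74, and after adult treatment 6.04, 6.66 and 6.90. The lower groups lay at or just above the background range, so the difference of 2.10 ± 0.21 (4.30-fold, adjusted p = 1.14e-05) may understate the change. The eosinophil, basophil and mast cell list did not move with it: 0 of its 9 genes passed the filter in spleen, 7 had means in the background range in each spleen group, and its summed intensity was 459 to 491 on perinate-tagged and 462 to 543 on adult-tagged arrays.

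Ccr4 binds Ccl17 and Ccl22 and is a receptor of skin- and lung-homing T cells and of Tregs drawn to dendritic cells. It was high throughout, at 11.66, 11.56 and 11.50 in perinate-tagged cells, against 10.53, 10.66 and 10.65 in adult-tagged cells. In the untagged cells it was 10.68, 10.27 and 10.05 after perinate treatment and 10.83, 10.08 and 10.39 after adult treatment. The gap to adult-tagged cells was 0.96 ± 0.18 (adjusted p = 0.00225), the smallest of the 7 raised receptors.

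Gpr15 takes T cells, Tregs among them, into the large intestine. It read 8.19, 8.56 and 8.57 on the perinate-tagged arrays and 7.07, 6.87 and 7.02 on the adult-tagged arrays. The untagged arrays were alike, at 6.73, 6.87 and 6.94 after perinate and 7.19, 6.95 and 6.81 after adult treatment. The lowest perinate-tagged array, replicate 2, is the one that went against its label, and the difference of 1.46 ± 0.14 (2.74-fold, adjusted p = 7.23e-06) became 1.58 without it.

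Cxcr6, the receptor for Cxcl16 on T cells that settle in liver and other tissue, differed most. The perinate-tagged arrays read 10.46, 10.54 and 10.75, the adult-tagged ones 7.60, 8.26 and 8.14. In untagged cells it spread more widely, from 8.04 to 9.32 after perinate treatment and from 8.25 to 9.22 after adult treatment, still below each perinate-tagged array. The difference was 2.59 ± 0.30 (6.0-fold, adjusted p = 3.45e-05). Its promoter, shown for the largest change, held 0 of the 5 motifs.

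Cxcr6 (chr9:123806227-123806476, strand +): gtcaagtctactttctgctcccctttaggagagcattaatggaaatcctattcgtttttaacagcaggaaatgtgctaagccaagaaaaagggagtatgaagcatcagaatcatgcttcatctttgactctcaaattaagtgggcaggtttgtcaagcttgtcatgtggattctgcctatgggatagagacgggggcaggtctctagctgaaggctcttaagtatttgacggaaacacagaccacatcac

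Cxcr3 binds the interferon-induced chemokines Cxcl9 and Cxcl10 and marks T cells of type 1 responses. It read 10.37, 10.39 and 10.28 on the perinate-tagged arrays and 8.37, 8.74 and 8.95 on the adult-tagged arrays, a difference of 1.66 ± 0.30 (3.16-fold, adjusted p = 0.00155). Untagged replicates 3, 4 and 5 read 8.94, 10.25 and 10.24 after perinate treatment and 9.22, 9.83 and 10.16 after adult treatment. Most untagged arrays therefore lay near the perinate-tagged level, and replicate 3 of both treatments lay lower.

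Ccr8, the receptor for Ccl1 on skin T cells and activated Tregs, did the same. Perinate-tagged arrays read 9.28, 9.58 and 9.43, and adult-tagged arrays 7.30, 8.04 and 7.76. The untagged values were 8.06, 9.85 and 9.73 after perinate and 8.42, 9.75 and 9.83 after adult treatment, with replicate 3 again the low array of both. The tagged groups differed by 1.73 ± 0.42 (3.32-fold, adjusted p = 0.0102), a call that was lost without adult-tagged replicate 1 (1.53, adjusted p = 0.0628).

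Ccr6, which follows Ccl20 to gut lymphoid tissue and marks type 17 cells, went the other way. The perinate-tagged arrays read 7.56, 7.28 and 7.68, the adult-tagged arrays 8.02, 8.16 and 8.05. All 6 untagged arrays lay between 7.90 and 8.25, above each perinate-tagged array. The difference was -0.57 ± 0.14 (adjusted p = 0.00931), and it missed the threshold without perinate-tagged replicate 4 (-0.46, adjusted p = 0.0596).

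Without perinate-tagged replicate 2 all 8 calls between the tagged groups held. With each array's interquartile range as a covariate 5 of the 8 calls held, while Ccr4 (adjusted p = 0.0717), Ccr8 (0.344) and Cxcr3 (0.124) did not pass. These arrays hold bulk RNA, so more cells with a receptor and more of its RNA per cell cannot be told apart.

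**Figure D2:**
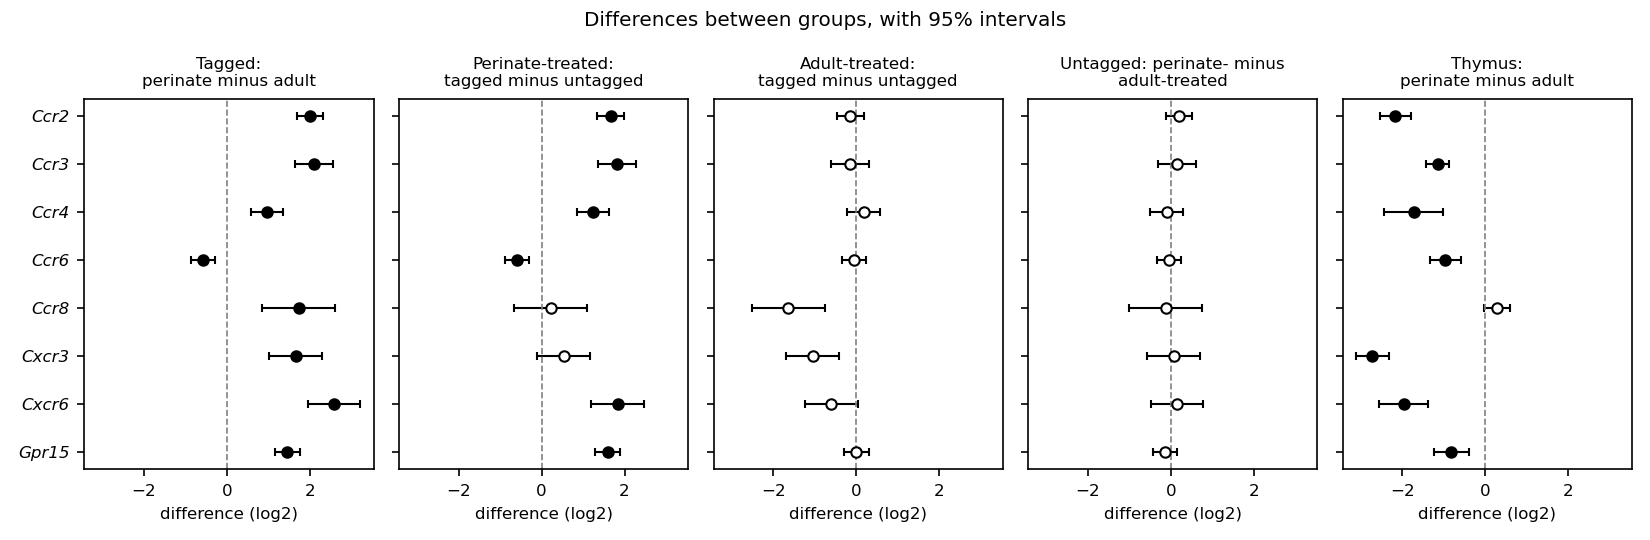
Log2 difference of each receptor (x axis) in 5 comparisons, with 95% intervals from limma; filled points passed an adjusted p of 0.05. The 7 receptors raised in perinate-tagged cells, and the lowered Ccr6, stand out in the left panel, 6 receptors passed against untagged cells of the same treatment, and 0 passed in the adult-treated or untagged panels.

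The same perinate-tagged cells were then set against untagged Tregs of perinate-treated mice. Here 5 receptors were higher, Cxcr6 by 1.84 ± 0.30, Ccr3 by 1.81 ± 0.21, Ccr2 by 1.66 ± 0.15, Gpr15 by 1.60 ± 0.14 and Ccr4 by 1.24 ± 0.18, and Ccr6 was lower (-0.59 ± 0.14, adjusted p = 0.0179). Of all genes 5.49% were called higher and 1.86% lower. Without overlap, 6 receptors were higher, Cxcr3 among them, and 1 lower, beside 19.7% and 12.3% of all genes. The split of all calls was 568 higher and 192 lower as deposited, 514 and 367 with quantile normalization, 507 and 96 with centring on all probe sets, and 537 and 334 with centring on the tested genes. The Ccr6 call was lost when arrays were centred on the median of all probe sets (adjusted p = 0.0525) and without replicate 4 of either group (0.103 without the perinate-tagged and 0.0571 without the untagged array). Ccr8 differed by 0.22 ± 0.42 (adjusted p = 0.803, 95% interval -0.67 to 1.10) and Cxcr3 by 0.54 ± 0.30 (adjusted p = 0.306, interval -0.10 to 1.18). A difference of the size of the upper bounds is thus not excluded by these intervals. The comparison shares its perinate-tagged arrays with the first one, and the limit set by the filter for Ccr3 and Gpr15 holds here too.

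Adult-tagged cells were compared with untagged Tregs of adult-treated mice in the same way. By limma 0 receptors were called, with 2 at an unadjusted p under 0.05, and of all genes 0% were called higher and 0.271% lower. Those 2 were Ccr8 (-1.63 ± 0.42, adjusted p = 0.107) and Cxcr3 (-1.05 ± 0.30, adjusted p = 0.135), both lower in adult-tagged cells without overlap, and 0 receptors were higher so, beside 10.3% and 6.7% of all genes. Both passed without untagged adult-treated replicate 3, the low array, at -2.09 and -1.31 (adjusted p = 0.00964 and 0.0204), and the number of genes called rose from 28 to 774. Both also passed in a fit of these 6 arrays alone (adjusted p = 0.0126 and 0.0261). For Ccr2, Ccr3, Ccr4, Ccr6 and Gpr15 the differences lay between -0.15 and 0.18, and for Cxcr6 the difference was -0.60 ± 0.30 (adjusted p = 0.325).

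**Figure D3:**
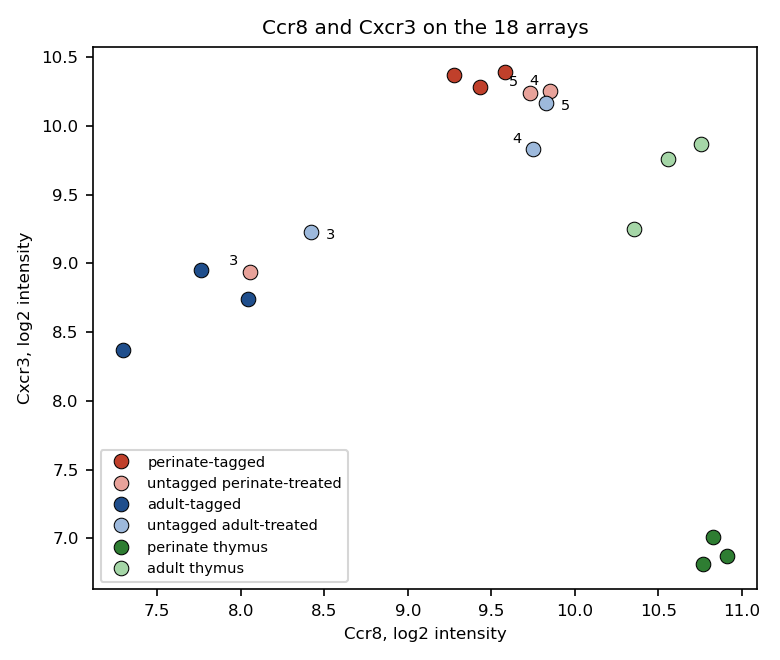
Ccr8 against Cxcr3 (log2 intensity, both axes) on the 18 arrays, 1 point per array, with the replicate number beside untagged arrays. Untagged replicate 3 of both treatments sits near the adult-tagged arrays and replicates 4 and 5 near the perinate-tagged arrays, while the perinate thymus joins the highest Ccr8 to the lowest Cxcr3.

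Ccr8 and Cxcr3 varied together in the untagged groups, where replicate 3 was low for both. The SD of Ccr8 was 1.00 and 0.79 there after perinate and adult treatment, against 0.15 in perinate-tagged cells. Over the deviations of the 18 arrays from their group means, r was 0.93 for Ccr8 and Cxcr3, 0.84 for Cxcr3 and Cxcr6 and 0.75 for Ccr8 and Cxcr6, as a description of arrays that also share a replicate number across the untagged groups. Ctla4, the inhibitory receptor of activated Tregs, was also lowest on untagged replicate 3 of both treatments: 10.46, 11.81 and 11.86 on replicates 3, 4 and 5 after perinate treatment and 10.44, 11.63 and 11.94 after adult treatment, with adult-tagged arrays at 10.29 to 10.41. What set replicate 3 apart was not tested. Between Ccr2 and the pair Ccr3 and Gpr15, r over the 12 spleen arrays was 0.93 and 0.94, but within groups only -0.05 and 0.08 over the 18 arrays, so that relation lies between groups.

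Untagged cells of both treatments were compared as a background. Age at treatment, time from treatment to harvest and the cells removed by tagging all differ between them and cannot be told apart. Between untagged perinate-treated and untagged adult-treated Tregs limma called 0 receptors, with 0 at an unadjusted p under 0.05, and 0% of genes either way (380 genes at an unadjusted p under 0.05). Differences ran from -0.14 (Gpr15) to 0.20 (Ccr2). The intervals were narrow for Ccr6 (-0.33 to 0.25) and Gpr15 (-0.44 to 0.16) and wide for Ccr8 (-1.01 to 0.77). With the replicate number as a block over these 6 arrays 49 genes passed, 37 higher and 12 lower, and 0 receptors.

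The interaction tested whether the perinate minus adult difference was larger in tagged than in untagged cells. It passed for 6 receptors, all with a larger difference in tagged cells: Cxcr6 by 2.43 ± 0.42, Ccr3 by 1.96 ± 0.30, Ccr2 by 1.80 ± 0.21, Gpr15 by 1.59 ± 0.20, Cxcr3 by 1.59 ± 0.42 and Ccr4 by 1.06 ± 0.26. Of all genes 4.29% passed with a higher and 0.599% with a lower difference, a split of 444 and 62 that was 411 and 140 with quantile normalization, 410 and 30 with centring on all probe sets, and 359 and 166 with centring on the tested genes. The calls of Cxcr6, Ccr3, Ccr2 and Gpr15 held under all alternatives run. Those of Ccr4 (adjusted p = 0.0272) and Cxcr3 (0.044) lay close to the threshold and were lost in 10 and 15 of 22 alternatives. Without perinate-tagged replicate 2 their adjusted p was 0.0528 and 0.0702. A block by replicate number treats same-numbered untagged arrays as pairs. With that block Cxcr3 came to 0.96 (adjusted p = 0.161) and Ccr4 to 1.31 (adjusted p = 0.00469). Ccr8 (1.85 ± 0.59, adjusted p = 0.092) and Ccr6 (-0.53 ± 0.19, adjusted p = 0.142) did not pass. Ccr8 passed without untagged adult-treated replicate 3 (2.31, adjusted p = 0.0115), and Ccr6 with arrays centred on the median of the tested genes (-0.66, adjusted p = 0.0445).

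In the thymus the age difference of 6 receptors, all but Ccr6 and Ccr8, had the opposite direction to that in tagged spleen cells. Tregs of the perinate thymus had less of 7 receptors than those of the adult thymus, Cxcr3 by 6.62-fold, and 1 receptor, Ccr8, was high at both ages. Of the 10650 genes tested 18.5% were called higher and 5.84% lower in the perinate thymus. The groups did not overlap for 7 receptors lower and 1 higher, beside 16.7% and 36.9% of all genes. Ccr2, Ccr3, Cxcr3, Cxcr6 and Gpr15 passed the thymus filter through the adult group alone. For these a lower perinate value was built into their passing, which limits the counts and the median. The members' median difference was -1.44, beside 0.17 for all genes, a value whose sign depended on the scaling.

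Cxcr3 read 7.01, 6.81 and 6.87 in perinate and 9.87, 9.25 and 9.75 in adult thymus, a difference of -2.73 ± 0.17 (adjusted p = 0.000183). Ccr2 read 5.83, 5.91 and 5.63 against 8.27, 7.72 and 7.89. The perinate values lie in the background range, so the Ccr2 difference of -2.17 ± 0.16 (4.51-fold, adjusted p = 0.000308) may understate the change. Both genes were thus near or at their lowest of all 6 groups in the perinate thymus and in the adult thymus close to the untagged spleen cells.

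Cxcr6 read 6.32, 6.62 and 6.42 in perinate and 8.75, 7.78 and 8.75 in adult thymus (-1.97 ± 0.26, adjusted p = 0.00218). Ccr4 read 8.79, 8.62 and 8.86 against 10.90, 9.68 and 10.88 (-1.73 ± 0.30, adjusted p = 0.00755). For both genes adult thymus replicate 2, whose interquartile range of 2.08 was the smallest of the 18 arrays, was the lowest of the adult arrays. Its part in the spread was not tested.

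Ccr3 read 5.87, 6.18 and 6.08 in the perinate thymus, at background level, and 7.25, 7.14 and 7.20 in the adult thymus. Its difference of -1.15 ± 0.12 (2.22-fold, adjusted p = 0.00103) may thus understate the change. Ccr6 read 8.39, 8.03 and 7.91 against 9.19, 8.85 and 9.18 (-0.96 ± 0.16, adjusted p = 0.00674), and the adult thymus had the most Ccr6 of the 6 groups. Gpr15 read 6.66, 6.59 and 6.80 against 7.45, 7.17 and 7.89 (-0.82 ± 0.18, adjusted p = 0.0184). The Gpr15 call was lost with quantile normalization (-0.68, adjusted p = 0.0692) and without adult replicate 3 or any 1 of the 3 perinate arrays (adjusted p = 0.0505 to 0.0846).

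Ccr8 read 10.83, 10.77 and 10.91 in perinate and 10.76, 10.35 and 10.55 in adult thymus, above each spleen array. It differed by 0.28 ± 0.13 (adjusted p = 0.141, interval -0.03 to 0.59) and passed without adult thymus replicate 1 (0.38, adjusted p = 0.0494). The CD8 genes Cd8a and Cd8b1 were above the filter in both thymus groups. Their summed linear intensity was 1323 to 1408 in perinate and 1831 to 1989 in adult thymus, against 289 to 392 in spleen. Cd8a was lower in the perinate thymus (-0.61 ± 0.11). Both belong to a list of 7 genes of immature thymocytes, of which 3 had means above the filter in each thymus group. The list's median log2 level was 6.47 to 6.65 in perinate and 6.58 to 6.78 in adult thymus. On perinate-tagged arrays it was 6.36 to 6.63, and on adult-tagged arrays 6.61 to 6.86. Cybb was lower in the perinate thymus (-1.70 ± 0.23) and Kit, a mast cell and progenitor gene, higher (1.14 ± 0.12). The part of these cells in the receptor differences was not tested. As deposited, 7 receptors were lower and the split of all calls was 1967 higher and 622 lower. With arrays centred on all probe sets 7 receptors were lower (split 2235 and 310), with quantile normalization 6 (1233 and 973), and with centring on the tested genes 7 (1137 and 1678). The median of all genes was 0.30, 0.02 and -0.09 under these 3 scalings.

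**Figure D4:**
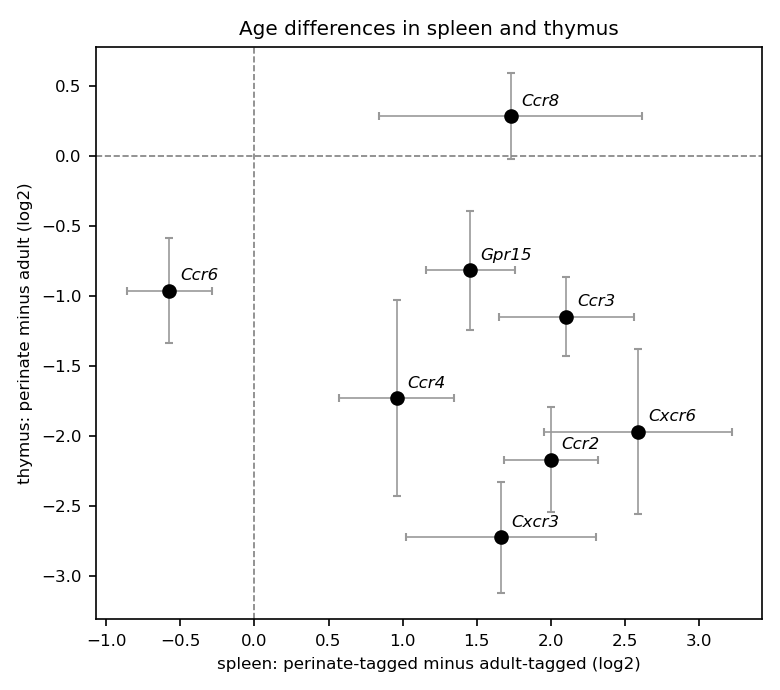
The perinate minus adult difference of each receptor in tagged spleen Tregs (x axis) and in thymic Tregs (y axis), log2 with 95% intervals. Ccr2, Ccr3, Ccr4, Cxcr3, Cxcr6 and Gpr15 lie to the right of 0 and below it, Ccr6 is below 0 on both axes, and the thymus interval of Ccr8 includes 0.

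The difference between these differences was tested over all 18 arrays. It passed for 6 receptors, Cxcr6 (4.56 ± 0.44), Cxcr3 (4.39 ± 0.40), Ccr2 (4.17 ± 0.22), Ccr3 (3.26 ± 0.28), Ccr4 (2.69 ± 0.35) and Gpr15 (2.28 ± 0.23), whereas 3.89% of all 10889 genes passed with a higher and 2.56% with a lower value. For Ccr2 and Ccr3 these estimates may understate the change, since their perinate thymus values lie at background. Ccr8 (1.45 ± 0.53, adjusted p = 0.113) and Ccr6 (0.39 ± 0.21, adjusted p = 0.289) did not pass, except in a fit with array weights. Age and tissue of the mouse, tagging, sex and sorter enter this contrast together.

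The order of the 6 groups sums up each receptor. Perinate-tagged cells ranked first for Ccr2, Ccr3, Ccr4, Cxcr3, Cxcr6 and Gpr15, with no overlap with the group ranked next. The perinate thymus ranked last for the same 6. How many of all genes share this order was not counted. Cxcr3 cleared the next group, untagged perinate-treated cells, narrowly (10.28 against 10.25), and limma did not call that difference (adjusted p = 0.306). Ccr3 and Gpr15 passed the spleen filter through the perinate-tagged group alone. For Ccr2 the 4 groups in between, both untagged groups, the adult thymus and adult-tagged cells, overlapped from neighbour to neighbour, and so did those of Ccr4 and Cxcr6. For Ccr3 and Gpr15 the adult thymus stood alone in second place (7.19 ± 0.06 and 7.50 ± 0.36, SD), and the last 4 groups overlapped. Ccr8 ran from perinate thymus (10.84 ± 0.07) over adult thymus (10.55 ± 0.20), then 3 overlapping spleen groups, to adult-tagged cells (7.70 ± 0.38). Ccr6 ran from adult thymus (9.08 ± 0.19) over 4 overlapping groups to perinate-tagged cells (7.51 ± 0.21). The gap between the highest and the lowest group mean was 4.13 for Cxcr6 and 4.06 for Ccr2, and 1.57 for Ccr6.

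Of the 8 genes 5 lie on chromosome 9, and Cxcr6, Ccr3 and Ccr2 share a receptor cluster there. Of their other measured genes there, only Ccr9 and Fyco1 passed the filter in spleen, and neither was called, where 16% of all genes were called higher. Ccr1 and Ccr1l1, next to Ccr3, had means in the background range in all 6 groups. Xcr1, a receptor of cross-presenting dendritic cells, stood at 6.16 ± 0.22 (SD) after perinatal and 6.59 ± 0.06 after adult tagging. Fyco1, an adaptor of vesicle transport next to Cxcr6, read 9.41 ± 0.02 and 9.61 ± 0.20. Ccr9, the small-intestine and thymus homing receptor, read 8.27 ± 0.08 and 8.33 ± 0.37, and 10.20 ± 0.04 in the perinate thymus. Cx3cr1, near Ccr8, read 7.09 ± 0.27 and 7.35 ± 0.24. Near Gpr15 on chromosome 16, the claudin-domain gene Cldnd1 (1.49 ± 0.17) and the haem synthesis gene Cpox (0.99 ± 0.15) were higher in perinate-tagged than in adult-tagged cells, as were Glb1 near Ccr4 (0.40 ± 0.13, adjusted p = 0.0494) and Cep43 near Ccr6 (0.49 ± 0.16, adjusted p = 0.0468). These were picked from 19 measured neighbours, not all of which passed the filter, while 16% of all tested genes were called higher. The share called among tested neighbours was not counted. Values of Tmppe, Trim71, Cnot10, Mpc1, Xirp1, Slc25a38, Rpsa, Ftdc2 and Olfr172 are not given here. The genes named thus cannot tell whether neighbours move with the receptors.

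**Figure D5:**
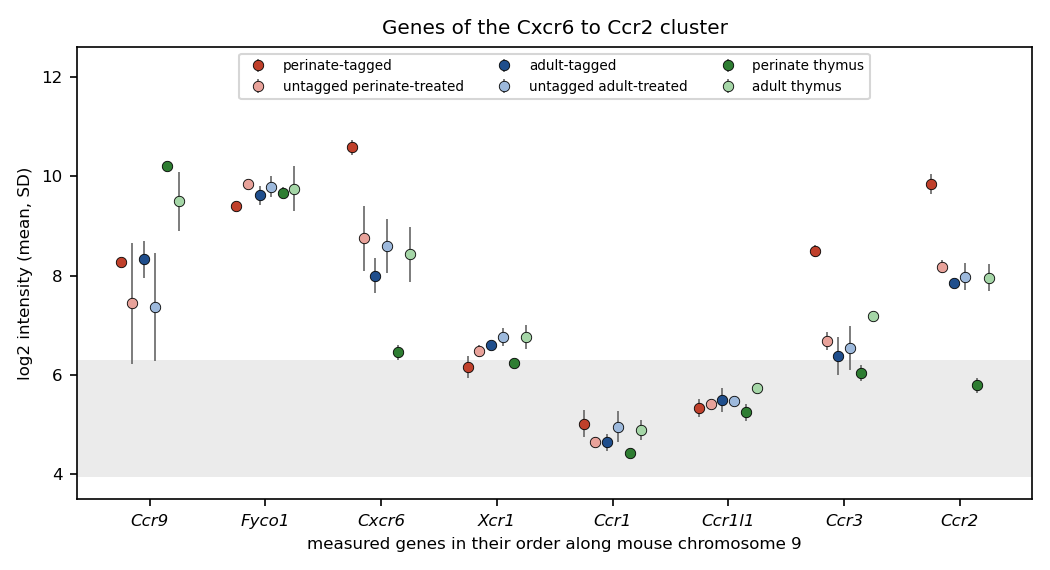
Mean log2 intensity (points, with SD over 3 arrays) of the 8 measured genes of the chromosome 9 cluster, in their order along the chromosome, for the 6 groups; grey marks the background range. Cxcr6, Ccr3 and Ccr2 are highest in perinate-tagged cells, while Ccr1 and Ccr1l1 between them lie in the background range in each group.

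The genes most like each receptor were taken by Pearson's r of log2 values over the 12 spleen arrays among 9813 candidates. They were E2f2, Ebp and Crip1 for Ccr2 (r 0.98 to 0.99) and Igsf9b, Ier3 and Cysltr1 for Ccr3 (0.97 to 0.98). For Ccr4 they were Tspan31, Pdia3 and Dhrs1 (0.98 each) and for Gpr15 Ccr10, Dsg2 and Fhl2 (0.96 to 0.97). Cxcr6 was closest to Gzmb, the gene of the cytotoxic protease granzyme B, then Rrm1 and Glrx (0.98 to 0.99). Cxcr3 was closest to Gmfg, Cenpa and Penk (0.97 to 0.98), and Ccr8 to Ccl5, Tigit and Chst2 (0.98 each). Ccr6 had Tgfbr3, Smyd3 and Marchf3 (0.91 to 0.94). Arrays of a group share their treatment and several share a replicate number, and a selected maximum is high by choice. Over all 18 arrays r stayed at 0.91 for Cxcr6 with Gzmb and 0.89 for Gpr15 with Ccr10 but fell to -0.05 for Ccr2 with E2f2 and 0.08 for Ccr8 with Chst2.

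Other chemoattractant receptors were mixed. Of 26 listed, 11 passed the filter in spleen, and between the tagged groups 4 were higher and 1 lower, beside 16% and 3.5% of all genes, with a median difference of 0.16 beside 0.12. Higher in perinate-tagged cells were Ccrl2, an atypical receptor that binds chemerin (2.00 ± 0.31), Cxcr5, the follicle-homing receptor (1.24 ± 0.15), Ccr10, a skin and mucosa receptor (1.10 ± 0.14), and Ltb4r1, the receptor for leukotriene B4 (1.09 ± 0.24). Ccr7, the lymph-node homing receptor, was lower (-0.91 ± 0.16). Against untagged cells of perinate-treated mice Ccr10 (1.07 ± 0.14), Ltb4r1 (1.01 ± 0.24) and Cxcr5 (0.74 ± 0.15) were again higher and Ccr7 lower (-0.62 ± 0.16, a call lost in 6 of 16 alternatives), together with Cxcr4, the bone-marrow retention receptor (-1.15 ± 0.22). In the thymus 1 of 11 was higher and 1 lower in the perinate group, Cxcr2 (1.28 ± 0.15) and Cxcr4 (-1.69 ± 0.16).

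Ligands of the 8 receptors were for the most part low in these cells. Of 17 listed, 6 passed the filter in spleen, and 2 were higher in perinate-tagged than in adult-tagged cells, with a median over the 6 of -0.13. They were Ccl5 (3.13 ± 0.67, adjusted p = 0.00537) and the Cxcr3 ligand Cxcl10 (2.36 ± 0.65, adjusted p = 0.0211, lost in 6 of 16 alternatives). Ccl5 also stood at 9.04 to 11.43 and 8.67 to 11.69 in untagged cells after adult and perinate treatment. Both ligands were lower in the perinate thymus (-0.82 ± 0.21 and -1.65 ± 0.18), 2 of the 4 tested there.

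Of 28 transcription factors linked to homing receptors, perinate-tagged cells had more of 11 and less of 0 than adult-tagged cells, beside 16% and 3.5% of all genes, with a median difference of 0.38 beside 0.12. The 4 with the largest rise were Tbx21, the T-bet gene that drives Cxcr3 in type 1 cells (1.47 ± 0.17), the vitamin D receptor Vdr (1.35 ± 0.17), Prdm1, which encodes Blimp-1 (1.23 ± 0.41, adjusted p = 0.0494), and Nfil3 (1.19 ± 0.24). The Prdm1 call was lost in 12 of 16 alternatives. With quantile normalization 9 of the list were higher and 2 lower. Against untagged cells of perinate-treated mice 1 of 28 was higher, Tbx21 (0.95 ± 0.17), where 5.49% of all genes were. Adult-tagged cells had less Vdr than their untagged counterpart (-1.08 ± 0.17), 1 of 28, a call lost in 7 of 16 alternatives. In the perinate thymus 6 of 27 were lower and 2 higher, beside 5.84% and 18.5% of all genes. The lower ones were led by Prdm1 (-2.28 ± 0.13), Maf (-2.08 ± 0.23), the inhibitor of differentiation Id2 (-1.76 ± 0.20) and Runx3 (-1.04 ± 0.13). Foxo1 (0.66 ± 0.17) and Irf4 (0.49 ± 0.13) were higher, calls lost in 6 and 9 of 16 alternatives. The counts there were 1 higher and 8 lower with quantile normalization, and 1 and 10 with centring on the tested genes.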

How the data were processed

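RNA of sorted Tregs was measured on 18 arrays, 3 in each of 6 groups, grouped by the labels. The authors deposited linear intensity values per probe set, for which the submitters' processing notes name RMA and Affymetrix Power Tools without a version. The genome build is not given in the sources used here, so coordinates are those of RefSeq's GRCm38.p6 promoter table, which held all 8 members. RMA summarises probes and normalizes arrays together, so values are comparable between arrays but low signals are compressed towards background. Precision is limited by the number of arrays.

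Of 24922 probe sets 21425 carry 1 gene symbol, 1399 several and 2098 none, per the platform annotation. For genes with several probe sets the one with the highest mean was kept. Values were log2 transformed without a pseudocount. A gene was tested when its mean in at least 1 group of the fit was at least 132.7 (log2 7.05), the median over the whole deposited table. The test was limma's moderated one (version 3.58.1, R 4.3.3; lmFit, eBayes, two-sided) on 1 coefficient per group, with Benjamini-Hochberg adjustment over all genes of a comparison and a threshold of 0.05. The 12 spleen arrays shared a fit (10350 genes), as did the 6 thymus arrays (10650) and, for the difference between tissues, all 18 (10889). The code was tested on simulated data. Python 3.11.15 with matplotlib 3.10.9 drew the figures.

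The receptors and gene lists were chosen with earlier results of these data known. Besides the 8 receptors, the text names list genes past the threshold (up to 4 higher and 4 lower per list and comparison), the measured genes among the 3 on either side of a receptor, the 3 genes most like each receptor, check genes and markers.

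Whether replicate numbers pair arrays was checked on the correlation of their deviations from group means. Same-numbered untagged arrays gave r of 0.63, 0.14 and 0.47 for replicates 3, 4 and 5. Each was over 0.1, so the numbers were taken to pair them. That choice comes from the data, not the labels. Perinate-treated replicate 4 with adult-treated 5 gave 0.27, and 5 with 4 gave 0.30, both above the replicate 4 pair. Differently numbered pairs with replicate 3 ran from -0.64 to -0.28. The values thus set replicate 3 apart but do not show that replicates 4 and 5 pair by number. Same-numbered thymus arrays gave -0.05, 0.06 and 0.12 and were not taken as paired. Alternatives covered scaling, filter, probe sets, variance prior, array weights, an interquartile range covariate, replicate blocks, the arrays in the fit and leaving out each array. Centring on the tested genes was added after seeing the data. The chimera arm of the series was not analysed here.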

Additional observations from a re-analysis of the deposited data

Results flagged for a closer look

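The perinate minus adult difference was not the same in tagged and untagged spleen cells for 6 receptors, by an interaction term. The difference of differences was 1.80 for Ccr2, 1.96 for Ccr3, 1.06 for Ccr4, 1.59 for Cxcr3, 2.43 for Cxcr6 and 1.59 for Gpr15, in each case larger in tagged cells. The calls of Ccr4 and Cxcr3 were lost in 10 and 15 of 22 alternatives, and those of the other 4 in 0. Between tagged spleen cells and thymus it was 4.17 for Ccr2, 3.26 for Ccr3, 2.69 for Ccr4, 4.39 for Cxcr3, 4.56 for Cxcr6 and 2.28 for Gpr15, all higher in spleen and lower in thymus.

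Genes of the related lists that passed the interaction of tagged and untagged cells were Ccrl2 (1.94), Cxcr5 (1.28), Ccr10 (1.11), the scaffold gene Frmd4b (1.41), Tbx21 (1.62), Vdr (1.45), the nuclear receptor Rora (1.07) and Maf (0.84), with a larger difference in tagged cells, and Ccr7 (-1.04) with a lower one. Of these, Rora missed the threshold under 12 of 22 alternatives, Ccrl2 and Maf under 4 each and Ccr7 under 1.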

How the results depend on the processing

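Of 986 receptor results under alternatives 936 kept their side of the threshold, 40 lost and 10 gained a call, and 0 results called in either fit changed sign. Some results called in neither fit did change sign, Gpr15 between adult-tagged and untagged cells among them. Of 1196 results of the list genes 202 lost their call and 0 changed sign. Counts of all genes moved more. Between the tagged groups (2020 genes) 5904 passed with array weights, 3371 in a fit of the 6 tagged arrays, 655 with a replicate block over the 12 spleen arrays and 376 with the interquartile range covariate (5 receptors), and 906 to 2052 with an array left out (906 and 1088 without adult-tagged replicates 1 and 3, 1075 and 943 without perinate-tagged replicates 4 and 5). The block, over numbers not shown to pair these arrays, left out Ccr6 and Ccr8 (adjusted p = 0.0834 and 0.0579). For the untagged groups (0 genes) the replicate block over 6 arrays gave 49, and 0 to 5 passed with an array left out (5 without adult-treated replicate 3). For the interaction (506) array weights gave 1077, the replicate block 274, and leaving out an array 279 to 679 (279 and 332 without adult-tagged replicates 1 and 3, 311 and 307 without perinate-tagged replicates 4 and 5). For perinate-treated cells (760) array weights gave 3867 and leaving out an array 299 to 1001 (312 and 299 without perinate-tagged replicates 4 and 5, 408 and 353 without those untagged replicates). For adult-treated cells (28) centring on the tested genes gave 12, no filter 17, array weights 71, the covariate 0, the replicate block 11, the 6 arrays alone 120 (2 receptors), and leaving out an array 0 to 774 (0 to 2 receptors; 774 without untagged replicate 3, 13 without adult-tagged replicate 2, and 0 without any other). For the thymus (2589) array weights gave 1566 and leaving out an array 707 to 4388 (4388, 4199 and 1019 without adult replicates 1, 2 and 3, and 707, 807 and 787 without the perinate ones). For spleen against thymus (703) median centring gave 440, array weights 5085, the covariate 1462, and leaving out an array 393 to 1069 (1069 and 465 without adult thymus replicates 1 and 3, 393 and 463 without perinate thymus replicates 1 and 2, 461 without adult-tagged replicate 1 or perinate-tagged replicate 5). The causes were not tested. Low receptors are limited by signal near background, and with 3 arrays a group an exact permutation test of single values cannot go below 0.1.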

Other observations

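Genes that carry or damp the chemokine receptor signal were also measured. Of 44 listed, 38 passed the filter in spleen, and between the tagged groups 7 were higher and 2 lower, with a median difference of 0.16 beside 0.12 for all genes. Since 16% of all genes were higher and 3.5% lower, these counts are near the background and say nothing particular of the list. Frmd4b (1.24 ± 0.19), Rgs16, which shortens G protein signals (0.64 ± 0.18), the Rac exchange factor Prex1 (0.57 ± 0.14) and Pik3cg, the catalytic subunit of PI3-kinase gamma (0.51 ± 0.12), were higher, and the phospholipase Plcb2 (-0.70 ± 0.20) and the PI3-kinase adaptor Pik3r5 (-0.59 ± 0.19) lower in perinate-tagged cells. Of 16 alternatives, 9 lost the call of Pik3r5, 7 each those of Rgs16 and Plcb2, and 4 each those of Prex1 and Pik3cg. With arrays centred on the tested genes the counts were 2 higher and 3 lower. Against untagged cells of perinate-treated mice 3 of 38 were higher, Frmd4b (1.05 ± 0.19), Plcb3 (0.51 ± 0.13) and Pik3cg (0.42 ± 0.12), beside 5.49% of all genes. The Pik3cg call was lost in 11 and the Plcb3 call in 6 of 16 alternatives.

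In the perinate thymus 4 of 37 were higher and 3 lower, beside 18.5% and 5.84% of all genes. Pik3cg (0.79 ± 0.13), Gnai3 (0.63 ± 0.18), talin Tln1 (0.53 ± 0.14) and Gnai2 (0.42 ± 0.12), an inhibitory G protein subunit that chemokine receptors use, were higher. Gnaq (-0.82 ± 0.19), Rgs1 (-0.45 ± 0.11) and the arrestin Arrb2 (-0.38 ± 0.12) were lower. The Pik3cg call held in 16 of 16 alternatives, while that of Gnai2 was lost in 10, Arrb2 in 9, Gnai3 and Tln1 in 8 each, Rgs1 in 6 and Gnaq in 5. With quantile normalization 1 was higher and 6 were lower.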
